A study of Mus musculus with 8 samples.

Results

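The genes described here are 9 regulators and receptors of lymphoid priming: the receptors Flt3, Cd27, Ccr9 and Il2rg and the nuclear regulators Satb1, Ikzf1, Ikzf2, Bcl11a and Mef2c. Their members were taken as every probe set (a group of short probes that reads one transcript) whose annotation names one of these genes alone, without those listed at 0 on every array. That gave 26 measured probe sets for 8 of the 9 genes, out of 24404 probe sets tested, and 3 further Ccr9 probe sets were listed at 0. No probe set carries the name Il2rg in the annotation used here, so that gene was not analysed here. RNA came from LSK cells, the lineage-negative Sca-1+ Kit+ fraction of mouse bone marrow in which stem cells and early multipotent progenitors lie. There were 4 control samples, labelled wild type, and 4 samples with a conditional knockout of Msi2 (KO), the gene of the RNA-binding protein Musashi-2, each on its own Affymetrix array. The Cre driver, the way deletion was induced, and the strain and age of the mice are not given in the sources used here. The series describes the samples as coming from 4 normal and 4 knockout mice, so the p-values measure the spread between mice as far as each array stands for 1 mouse.

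Lymphoid priming is the step at which some multipotent progenitors take on lymphoid features while they can still form myeloid cells. FLT3, a receptor tyrosine kinase, marks these progenitors, and its ligand favours their growth. Nuclear factors such as Ikaros (Ikzf1), BCL11A, MEF2C and SATB1 act before the first B and T cell genes are fully on, and IL2RG (the common gamma chain) and CCR9 serve cytokine signalling and homing to the thymus.

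Before the values of the genes, the arrays need a description. The remaining signal of Msi2 itself was uneven over the KO group. Its brightest probe set (1421230_a_at) kept 88.9% (Msi2 KO 1), 79.2% (Msi2 KO 2), 14.3% (Msi2 KO 3) and 45.0% (Msi2 KO 4) of the control level, against 90.9% to 108% in controls (limma, adjusted p 0.442). Averaged over all Msi2 probe sets with a mean above 7 (log2), the KO arrays kept 72.6%, 63.4%, 15.1% and 40.5% in that order. Controls read 91.1% to 111% by that average, so by it every KO array lay below every control. Msi2 KO 3 was unlike the rest in several readings. Its actin signal differed most between 3′ and 5′ probes, a sign of RNA quality (0.287 on the log2 scale, others -0.118 to 0.133), while the same difference of Gapdh was 1.70 there and 1.35 to 1.85 on the others. It had the lowest bioB spike-in signal (9.64, others 9.98 to 10.34), while its median log2 signal (7.06) lay among those of the others (7.03 to 7.07). The summed level of the 4 measured erythroid markers of 7 (Hba-a1 at 0) was 11.54 on Msi2 KO 3, 9.35 to 10.24 on the other KO arrays and 8.09 to 9.65 in controls (log2 of the summed signals). Control 1, Msi2 KO 1 and Msi2 KO 2 carried little Xist (4.79 to 5.55, others 11.92 to 12.51), and these 3 expressed the Y-linked Eif2s3y, so that the KO group held males and females 2 to 2 and the controls 1 to 3. Of the genes that define LSK cells, Kit was measured on every array, at 8.39 to 9.16 in controls, 8.82 to 9.19 in KO and 9.02 on Msi2 KO 3, and Ly6a (Sca-1) carries no name in the annotation used here. Kit summed with the further progenitor and blood cell markers Cd34 and Ptprc gave 11.49 to 11.65 in controls, 10.95 on Msi2 KO 3 and 11.44 to 11.52 on the other KO arrays. Genes that mark mature lymphoid cells were largely at 0 on all arrays. These were 5 of 8 T cell markers (Cd3d, Cd3e, Cd3g, Cd4 and Cd8a), 5 of 7 B cell markers (Cd79a, Ms4a1, Cd22, Pax5 and Ebf1), 5 of 6 markers of NK and innate lymphoid cells, and Siglech and Ly6d, 2 of 6 plasmacytoid dendritic markers. The summed levels of the measured T cell markers (2) were 7.22 to 7.38 in controls and 6.74 to 7.51 in KO, of the B cell marker Cd79b 7.41 to 8.19 and 7.18 to 7.55, and of the plasmacytoid dendritic markers (4) 10.68 to 10.94 and 10.47 to 10.84. Mast cell and basophil markers (5 of 5 measured) summed to 7.30 to 9.07 in controls and 8.46 to 9.89 in KO, and macrophage markers (5 of 6; C1qa at 0) to 8.09 to 10.04 and 9.78 to 11.01, with 3 of 4 KO arrays above every control for each list. Megakaryocyte markers (3 of 5; Gp9 and Gp1bb at 0) summed to 9.06 to 10.87 and 10.63 to 11.83, and neutrophil markers (4 of 6; Camp at 0) to 12.82 to 13.57 and 13.18 to 13.62, with only Msi2 KO 4 above the controls for these lists.

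Over the whole group, no member passed the threshold, and for members such as Flt3 and Cd27 the difference lay mainly on Msi2 KO 3. Satb1 1436182_at and Mef2c 1451506_at went from -0.56 and -0.43 to -0.43 and -0.28 without that array. In limma's fit across all probe sets 0 of 26 members had an adjusted p below 0.05 (0 of 24404 probe sets, 0%), with adjusted p between 0.486 and 0.996. At an unadjusted p below 0.05 there were 2 members, 1436182_at of Satb1 and 1451506_at of Mef2c, against 9.72% of all probe sets. The 2 groups were fully separated for 1 of 26 members, while 6.09% of all probe sets had no overlap. These shares are no higher than the background. The members read lower in KO for 20 of 26 probe sets (49.9% of all probe sets did), with a median log2 difference of -0.09, against 0.00051 over all. Without Msi2 KO 3 the count was 14 of 26 (50.5% of all) and the median -0.06. Of the 8 measured genes, each taken by its brightest probe set, 7 were lower in KO (49.6% of the 10720 genes tested) and 5 of 8 without Msi2 KO 3 (50.3%).

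Flt3, Cd27, all 5 probe sets of Mef2c, 4 of 5 of Satb1 and 2 of 3 of Ikzf2 had their lowest signal on the same array. Msi2 KO 3 gave the lowest signal of all arrays for 15 of 26 members (57.7%), while it was the lowest for 18.7% of all probe sets and the highest for 20.1%. It lay more than 0.5 (log2) below the next lowest array for 9 members (34.6%), against 3.81% of all probe sets. Those 9 were the single probe sets of Flt3 and Cd27, 2 of 5 of Satb1, 2 of 3 of Ikzf2 and 3 of 5 of Mef2c. The 0.5 limit and this count were chosen after the values were seen. No probe set of Ikzf1 and 1 of 7 of Bcl11a had its lowest value there. Msi2 KO 3 is also the array with the least Msi2, the most erythroid signal and the actin difference given above, and the part of each in the low values was not tested. In such bulk samples, fewer cells of a type and less RNA per cell cannot be told apart.

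**Figure D1:**
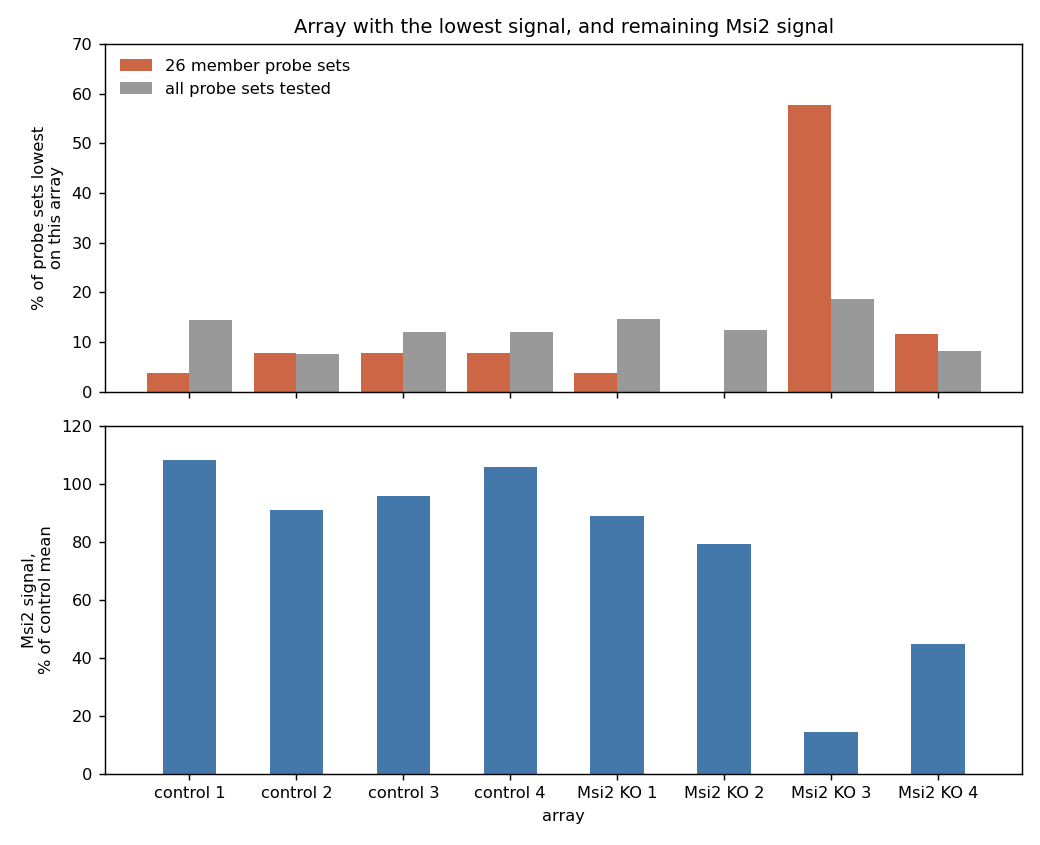
Upper panel: for each of the 8 arrays, the percentage of the 26 member probe sets (orange) and of all 24404 probe sets tested (grey) whose lowest log2 signal fell on that array. Lower panel: signal of the brightest Msi2 probe set as a percentage of the control mean. Msi2 KO 3 holds 57.7% of the members' lowest values, 18.7% of those of all probe sets, and 14.3% of the control Msi2 signal.

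Flt3 encodes the receptor by which lymphoid-primed progenitors are recognised, and it showed the widest gap between arrays of any member. Its only probe set, 1419538_at, read log2 signals of 9.80, 9.71, 9.40 and 9.59 on controls 1 to 4 and 9.45, 9.85, 7.52 and 9.20 on Msi2 KO 1 to Msi2 KO 4. Msi2 KO 3 and Msi2 KO 4 lay below every control, Msi2 KO 1 lay within the controls and Msi2 KO 2 above them all. As a share of the control mean, Msi2 KO 3 carried 23.3% of the Flt3 signal, a 4.29-fold lower level, and Msi2 KO 4 carried 74.6%. The group means were 9.62 ± 0.17 and 9.005 ± 1.03 (SD, n = 4 each), a log2 difference of -0.62 with a 95% interval of -1.59 to 0.36 (limma, adjusted p 0.684). Without Msi2 KO 3 the difference was -0.12 (-0.55 to 0.31). The low Flt3 arrays, Msi2 KO 3 and Msi2 KO 4, are the KO arrays with high Xist and also those with the least Msi2 signal. Among the KO arrays, sex and Msi2 level therefore cannot be told apart, and the part of each was not tested. The controls with high Xist read 9.40 to 9.71, and with Xist in the model the difference was -0.85 (limma, adjusted p 0.440). With all arrays the interval therefore spans from a clear loss to a small gain, and most of its width comes with 1 array.

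Cd27, a TNF-family receptor carried by multipotent and lymphoid progenitors and by lymphocytes, was the steadiest member among controls. Probe set 1452389_at read 11.24, 11.12, 11.20 and 11.17 on controls 1 to 4, an SD of 0.05, and 11.18, 11.37, 9.97 and 11.02 on Msi2 KO 1 to Msi2 KO 4. Msi2 KO 3 carried 43.2% of the control mean and Msi2 KO 4 89.4%, both below every control, and Msi2 KO 2 lay above them all at 114%. The log2 difference was -0.30 (-0.92 to 0.32; limma, adjusted p 0.776), and without Msi2 KO 3 it was 0.01 (-0.31 to 0.32). Thus 3 of 4 KO arrays lay outside the narrow range of the controls, Msi2 KO 3 by the most, and the KO arrays other than Msi2 KO 3 averaged to the control level.

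Ccr9, the chemokine receptor that guides progenitors to the thymus, was not shown to lie above background. Its measured probe sets read between 3.57 and 4.76 (1421920_a_at) and between 3.43 and 4.04 (1442758_at) over all 8 arrays. Xist on the arrays that lack it and the Y-linked Eif2s3y on the others read 3.36 to 5.55, the same range. The differences were 0.15 (-0.44 to 0.73) and -0.20 (-0.58 to 0.18), of opposite sign, and no fold is given.

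**Figure D2:**
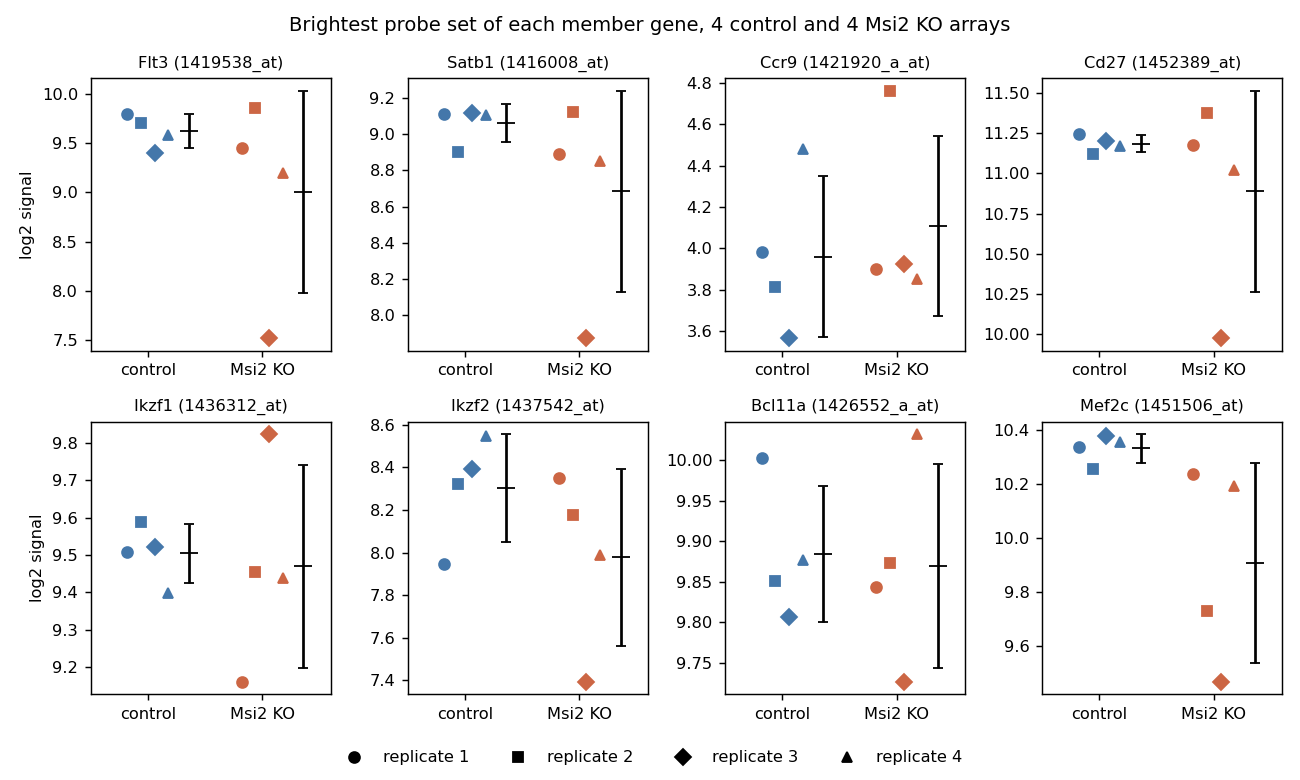
Log2 signal (y axis, a separate range for each panel) of the brightest probe set of each of the 8 measured genes on 4 control (blue) and 4 Msi2 KO (orange) arrays. The marker shape gives the replicate number, and the black bar gives the mean ± SD of 4 arrays. Flt3, Cd27 and Satb1 show Msi2 KO 3 (diamond) far below the other arrays, at 7.52, 9.97 and 7.87, while Ikzf1 has its highest value there, 9.82.

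Satb1 encodes a chromatin organiser that folds loci in T cells and acts in stem cells and lymphoid progenitors. Its brightest probe set, 1416008_at, read 9.11, 8.90, 9.12 and 9.11 in controls and 8.89, 9.12, 7.87 and 8.85 on Msi2 KO 1 to Msi2 KO 4. Msi2 KO 3 stood at 44.0% of the control mean, and the other KO arrays at 86.6% to 104%. The log2 difference was -0.37 (-0.94 to 0.19; limma, adjusted p 0.667), or -0.10 (-0.42 to 0.21) without Msi2 KO 3. Probe set 1416007_at, for which the annotation gives the same source sequence, differed by -0.07, and by 0.18 without that array. The dimmer 1436182_at had the smallest unadjusted p among the members (0.0378, adjusted 0.486). It read 6.66, 6.09, 6.84 and 7.04 in controls and 6.43, 6.09, 5.69 and 6.15 in KO. Its difference of -0.56 (-1.09 to -0.04) was -0.43 without Msi2 KO 3, and the groups overlapped through control 2. The other Satb1 probe sets gave -0.09 (1439449_at) and -0.06 (1439315_at), and the latter reads within the background range, at 4.01 to 5.49.

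Satb1, Flt3 and Cd27 had their low value on the same array, and the promoters of these genes are shown for that reason. Each run covers 250 bases before to 50 after a transcript start (RefSeq, GRCm38.p6), printed 5′ to 3′ on the gene's strand. 8 of the 9 genes have a promoter in the table used. Capitals mark any match, on either strand, to the letters of 5 motifs. These are TGTGGT for the RUNX factors, then AGGAAG for ETS factors such as PU.1, then CAGNTG for the E-box bound by E proteins. The others are AGATAA for the GATA factors and, for the Ikaros family, TGGGAA. For Satb1 the start farthest upstream of the 5 listed was taken. The runs are chr5:147400440-147400739 (Flt3), chr6:125236978-125237277 (Cd27) and chr17:51833241-51833540 (Satb1), all on the minus strand.
Flt3: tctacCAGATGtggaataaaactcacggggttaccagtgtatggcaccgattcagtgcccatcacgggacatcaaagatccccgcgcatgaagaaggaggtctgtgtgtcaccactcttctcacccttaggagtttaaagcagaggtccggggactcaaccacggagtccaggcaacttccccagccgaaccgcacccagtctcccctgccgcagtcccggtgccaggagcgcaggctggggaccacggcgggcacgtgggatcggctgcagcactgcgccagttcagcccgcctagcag
Cd27: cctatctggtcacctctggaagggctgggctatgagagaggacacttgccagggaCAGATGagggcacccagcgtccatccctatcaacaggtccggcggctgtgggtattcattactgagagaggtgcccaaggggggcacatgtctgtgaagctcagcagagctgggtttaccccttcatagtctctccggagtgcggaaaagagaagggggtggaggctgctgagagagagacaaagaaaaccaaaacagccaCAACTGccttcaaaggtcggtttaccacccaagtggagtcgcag
Satb1: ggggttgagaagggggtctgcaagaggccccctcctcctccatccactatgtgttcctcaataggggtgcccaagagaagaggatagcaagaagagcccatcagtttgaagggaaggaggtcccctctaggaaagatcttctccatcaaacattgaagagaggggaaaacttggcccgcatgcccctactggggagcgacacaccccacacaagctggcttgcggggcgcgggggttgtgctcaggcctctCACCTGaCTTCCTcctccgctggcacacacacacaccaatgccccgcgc
Flt3 held 1 E-box match, Cd27 held 2, and Satb1 held 1 E-box and 1 ETS match, with no match to the RUNX, GATA or Ikaros letters in any of the 3 windows. Other Satb1 windows do hold the Ikaros letters, with 1 match each at chr17:51826539-51826838 (beside 4 E-box matches) and chr17:51812005-51812304. The windows of Mef2c, also low on Msi2 KO 3, are not shown. Among all 32851 promoters of 300 bases, 51.4% held an E-box, 35.4% the ETS letters, 25.6% the Ikaros letters, 16.8% the RUNX letters and 11.2% the GATA letters. The E-box is thus common to most promoters of this length, and these matches describe letters, not sites.

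The brightest probe sets of Ikzf1 and Ikzf2 went separate ways on Msi2 KO 3. Ikzf1 encodes Ikaros, a zinc finger factor needed for lymphoid development. Its probe set 1436312_at read 9.51, 9.59, 9.52 and 9.40 in controls and 9.16, 9.45, 9.82 and 9.44 on Msi2 KO 1 to Msi2 KO 4. Msi2 KO 3 was above every other array, at 125% of the control mean, and Msi2 KO 1 below them, at 78.9%. On the other probe set, 1421303_at, Msi2 KO 3 read 9.59, within the controls (9.11 to 9.78). The group difference was -0.04 for 1436312_at (-0.39 to 0.32, limma, adjusted p 0.969) and 0.01 for 1421303_at (-0.40 to 0.43). These intervals leave room for a change of about that size in either direction and for none.

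Ikzf2 encodes Helios, an Ikaros relative of stem cells and T cells. Its probe set 1437542_at read 7.95, 8.32, 8.39 and 8.55 in controls and 8.35, 8.18, 7.40 and 7.99 in KO, and 1421643_at read 7.54, 7.65, 7.73 and 8.17 in controls and 7.59, 7.80, 6.74 and 7.62 in KO. On both, Msi2 KO 3 lay below every control, at 53.3% and 49.0% of the control mean, and the other KO arrays lay within the controls. The differences were -0.32 (-0.83 to 0.18; limma, adjusted p 0.680) and -0.33 (-0.89 to 0.22; adjusted p 0.699), and -0.13 and -0.10 without Msi2 KO 3. The dim 1456956_at varied most among controls (5.97 to 7.32) and gave -0.12 (-0.94 to 0.69). On this probe set Msi2 KO 3 read 6.33, within the controls, and Msi2 KO 4 was the lowest array, at 5.88.

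Mef2c, a MADS-box factor that favours lymphoid over myeloid output of progenitors, held the one member without overlap. Its brightest probe set, 1451506_at, read 10.34, 10.26, 10.38 and 10.36 in controls and 10.24, 9.73, 9.47 and 10.19 on Msi2 KO 1 to Msi2 KO 4. All KO arrays lay below the lowest control, Msi2 KO 1 by a narrow margin, and Msi2 KO 2 and Msi2 KO 3 stood at 65.9% and 54.9% of the control mean. The difference was -0.43 (-0.85 to -0.004; limma, unadjusted p 0.048, adjusted p 0.510), and without Msi2 KO 3 it was -0.28 (-0.64 to 0.09). The exact permutation test over arrays gave a two-sided p of 0.0286, the smallest that 4 arrays against 4 can give. Every probe set without overlap has that p, so it only restates the separation.

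The other Mef2c probe sets had the low value on Msi2 KO 3 but not the one on Msi2 KO 2. On Msi2 KO 3 they stood at 46.2% (1451507_at), 56.2% (1421027_a_at), 58.5% (1424852_at) and 54.0% (1421028_a_at) of their control means, and on Msi2 KO 2 at 108%, 92.9%, 107% and 112%. Their group differences were -0.32, -0.10, -0.18 and -0.19, and without Msi2 KO 3 -0.06, 0.14, 0.02 and 0.05. The annotation gives 1451506_at, 1451507_at and 1424852_at the same source sequence, so these are not independent readings. Over the 18 pairs of a gene's brightest probe set with another of its probe sets, 0 differed after adjustment in how far KO moved from control (two-sided exact permutation test, smallest p 0.0571, adjusted p 0.795 to 1). That design allowed 0.0286 at best for 1 pair, which misses the threshold once adjusted unless many pairs reach it.

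**Figure D3:**
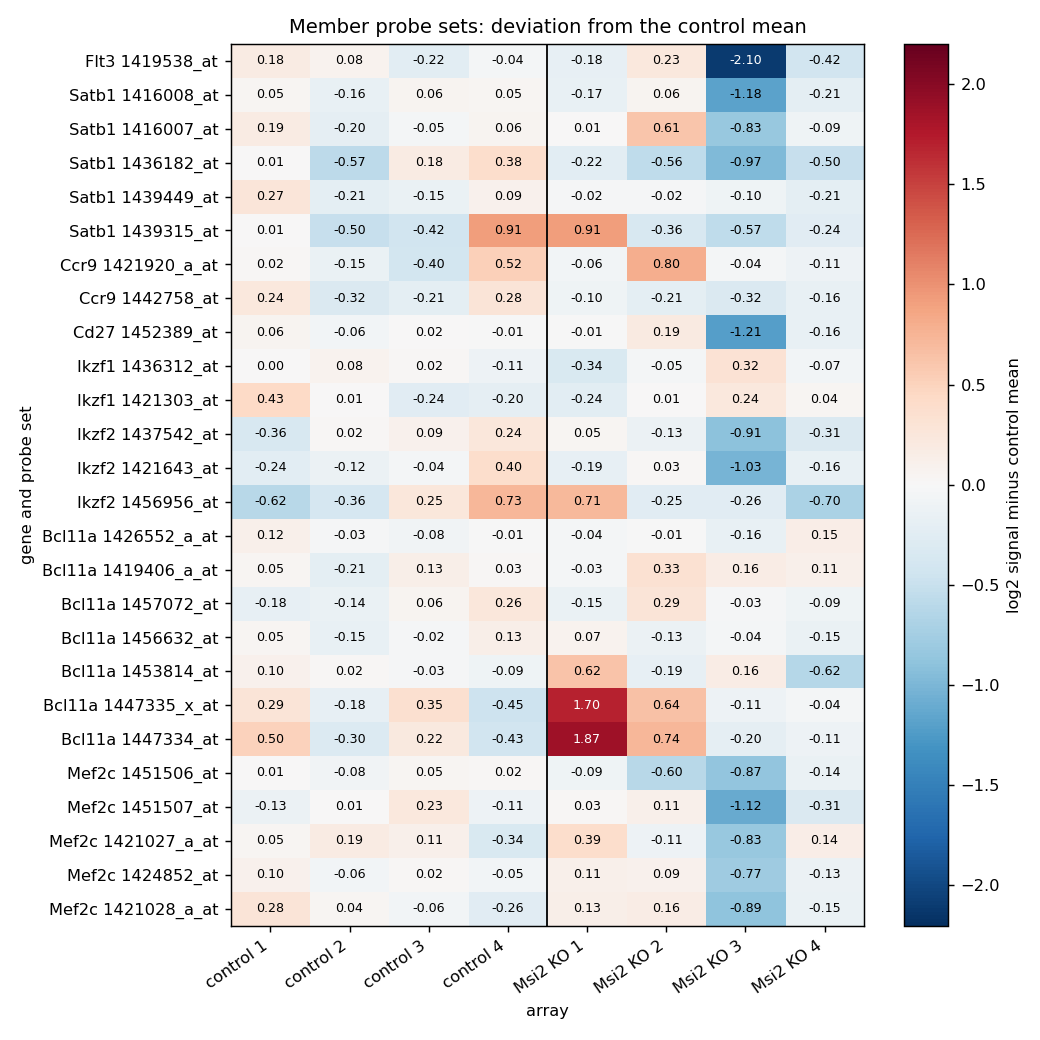
Log2 signal minus the control mean for the 26 member probe sets (rows, with gene and probe set) on the 8 arrays (columns, controls left of the line); blue is below and red above the control mean. The column of Msi2 KO 3 is blue for Flt3 (-2.10), Cd27 (-1.21), the bright Satb1 and Ikzf2 probe sets and all of Mef2c (-0.77 to -1.12), and the strongest red lies at Bcl11a on Msi2 KO 1 (1.87).

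Bcl11a, a zinc finger repressor required for lymphoid development, had 7 probe sets and no common pattern. The 4 brightest differed little: 1426552_a_at by -0.02 (-0.30 to 0.27), 1419406_a_at by 0.14 (-0.17 to 0.45), 1457072_at by 0.004 (-0.35 to 0.36) and 1456632_at by -0.06 (-0.34 to 0.22). For 1426552_a_at the controls read 10.002, 9.85, 9.81 and 9.88 and the KO arrays 9.84, 9.87, 9.73 and 10.03, so Msi2 KO 3 was close to the others, at 89.7% of the control mean. That interval bounds a change of this probe set at 0.30 (log2) in either direction.

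The dim pair 1447334_at and 1447335_x_at behaved otherwise. 1447334_at read 6.76, 5.96, 6.48 and 5.83 in controls and 8.13, 6.995, 6.06 and 6.15 on Msi2 KO 1 to Msi2 KO 4. Msi2 KO 1 stood 3.65-fold above the control mean and Msi2 KO 2 at 167% of it, while Msi2 KO 3 and Msi2 KO 4 lay within the controls. Its group difference was 0.57 (-0.42 to 1.56; limma, adjusted p 0.716). 1447335_x_at gave the same order on Msi2 KO 1 (3.24-fold above the control mean) and a difference of 0.55. The annotation gives both the same source sequence and their values never lay more than 0.209 (log2) apart, so they count as 1 observation. 1453814_at was also highest on Msi2 KO 1 (8.57, controls 7.86 to 8.05) and lowest on Msi2 KO 4 (7.33), with a difference of -0.01 (-0.55 to 0.53).

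**Figure D4:**
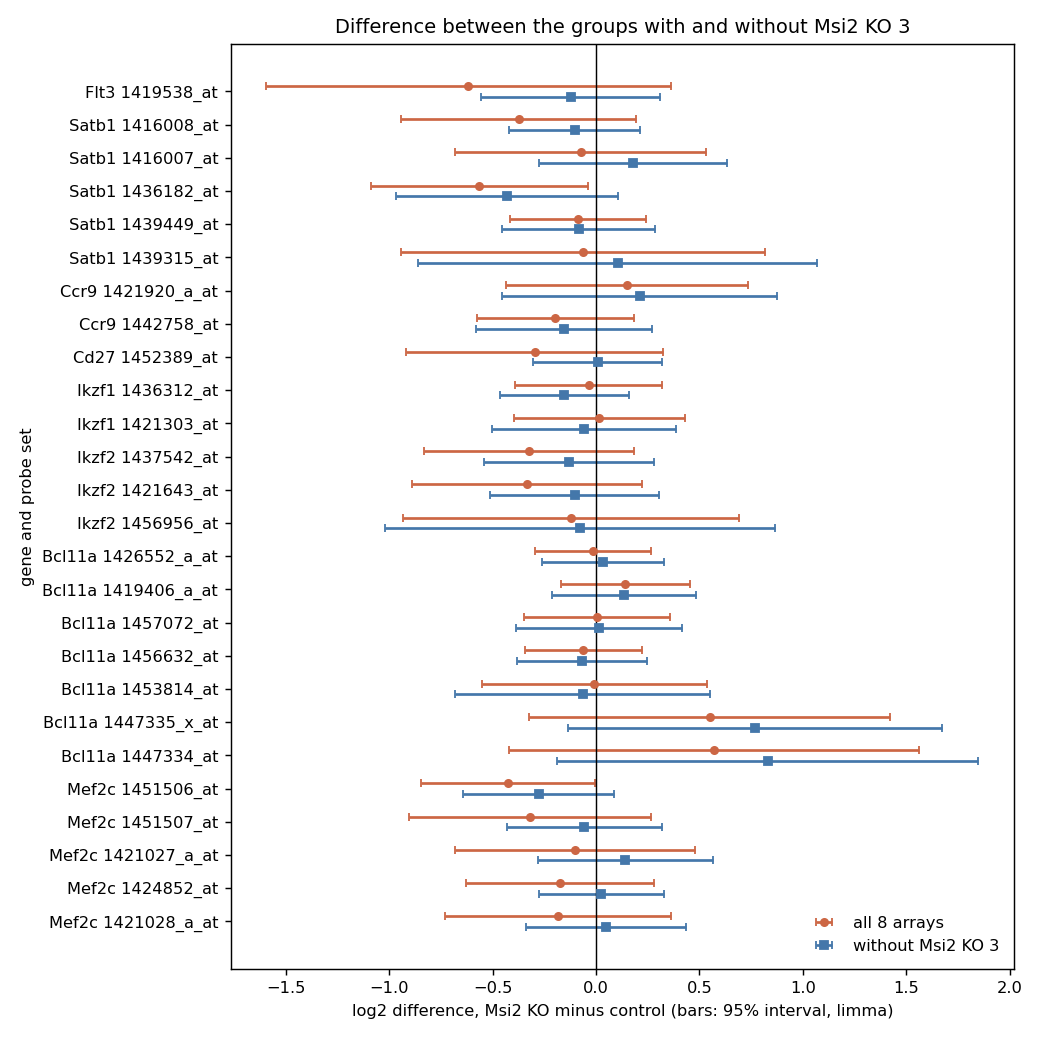
Log2 difference, Msi2 KO minus control, of the 26 member probe sets with 95% intervals from limma, for all 8 arrays (orange circles) and without Msi2 KO 3 (blue squares). With all arrays 2 intervals miss 0 (Satb1 1436182_at and Mef2c 1451506_at), and without Msi2 KO 3 every interval includes 0.

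For each member, the gene most like it over the 8 arrays was sought among 4546 or 4547 genes of at least median level. Flt3 ran closest with Cxxc5 (Pearson r 0.994, Spearman rho 0.929; r 0.939 without Msi2 KO 3), Satb1 with Cd27 (r 0.983, rho 0.905; r 0.752 without it) and Cd27 with Cdkn1b, a cell cycle inhibitor (r 0.993, rho 0.952; r 0.854 without it). Cxxc5 read 7.23 on Msi2 KO 3 and 8.10 to 8.53 on the others, the shape seen in Flt3. The remaining pairs were Mef2c with Rnf144b (0.968), Ikzf2 with Chd9 (0.965), Ikzf1 with Dph5 (0.970) and Bcl11a with Taf15 (0.915). For Ccr9, whose readings lie in the background range, the closest was Rnaseh2b (0.935, and 0.843 without Msi2 KO 2), which describes background readings only. These are each the highest among all candidate values over 8 points that share arrays, so they are descriptions, and those of Satb1 and Cd27 rest in good part on Msi2 KO 3.

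Around these genes, lists of relatives and partners were counted in limma's fit over genes, where 0 of 10720 genes passed (0%; 11.4% at an unadjusted p below 0.05, and 7.11% with no overlap of the groups). Of 18 other genes of lymphoid priming, 11 were measured, 6 lower and 5 higher in KO, with a median of -0.22 (0.0022 over all genes), and of -0.06 without Msi2 KO 3. None passed adjustment, and 4 had an unadjusted p below 0.05 (Dntt, Mn1, Notch1 and Cd48). Il7r, Rag1, Ly6d, Ebf1, Pax5 and Lef1 were at 0 on all arrays.

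Dntt, Notch1 and Mn1 lay lower on every KO array than on any control. Dntt, the terminal transferase that adds bases at antigen receptor joints, read 11.16, 11.10, 10.56 and 11.03 in controls and 9.97, 10.10, 7.55 and 8.96 on Msi2 KO 1 to Msi2 KO 4. Its difference was -1.82 ± 0.50 (SE; limma, adjusted p 0.287), and -1.29 without Msi2 KO 3, so Dntt, unlike Flt3 and Cd27, was low on all 4 KO arrays. Its probe set ends in _x_at, a class whose probes may also take up similar sequences. Notch1, the receptor that directs T cell fate, read 9.09, 8.95, 8.99 and 8.96 in controls and 8.83, 8.56, 7.50 and 8.11 in KO, a difference of -0.75 ± 0.26 (SE; adjusted p 0.366) and -0.50 without Msi2 KO 3. Mn1, a transcriptional cofactor, went from 5.85 to 6.86 in controls down to 3.84 on Msi2 KO 3 and 4.46 on Msi2 KO 4, both within the background range. In all 3 genes Msi2 KO 3 was the lowest and Msi2 KO 4 the next, the same order as for Msi2 and for Flt3. The summed erythroid markers were highest on these same arrays, at 11.54 on Msi2 KO 3 and 10.24 on Msi2 KO 4. Msi2 KO 1 and Msi2 KO 2 read 9.35 and 10.08 for that sum. Msi2 KO 3 and Msi2 KO 4 are also the KO arrays with high Xist, and what the order follows was not tested.

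The relatives of the nuclear members showed no common direction. Of the MEF2 family, Mef2a differed by -0.35 (-0.82 to 0.13) and Mef2d by 0.31 (-0.07 to 0.70), and Mef2b was at 0. Mef2a was low on Msi2 KO 2 and Msi2 KO 3 (7.40 and 7.30, controls 7.83 to 8.20), the arrays on which Mef2c 1451506_at was low too. The other Mef2c probe sets lay within their controls on Msi2 KO 2, and the difference of Mef2a changed sign with its probe sets averaged. Of the Ikaros and zinc finger relatives, 3 were measured, with differences of -0.41 for Ikzf4, -0.07 for Bcl11b and 0.09 for Ikzf5, none past the threshold. Ikzf4 was at -0.12 without Msi2 KO 3, and its KO readings (3.95 to 5.33) and 3 of 4 control readings lay within the background range. Bcl11b read 3.65 to 4.25 and lay within the background range, and Ikzf3 (Aiolos) was at 0. The 11 chromatin partners of Ikaros, such as the NuRD and histone deacetylase subunits, had 4 higher and 7 lower with a median of -0.04. Their lowest was Hdac2 at -0.26 (-0.61 to 0.10), and Gatad2b, at -0.17, had no overlap.

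Partner receptor chains and signalling genes of the common gamma chain were measured together as 1 list, although that chain itself was not. Of 13 listed, 9 were measured, 3 higher and 6 lower (median -0.15, and 0.04 without Msi2 KO 3), and the receptor chains Il2ra, Il2rb, Il7r and Il9r were at 0. Stat5a and Stat6, transducers of cytokine receptors, lay higher on all KO arrays than in controls. Stat5a read 10.06, 10.08, 10.18 and 9.99 in controls and 10.42, 10.59, 10.39 and 10.22 in KO, a difference of 0.33 ± 0.13 (SE; limma, adjusted p 0.397) that was also 0.33 without Msi2 KO 3. Stat6 differed by 0.33 ± 0.16 (SE; adjusted p 0.464). The kinases Jak1 (0.06, -0.34 to 0.46) and Jak3 (-0.12, -0.90 to 0.65) overlapped between the groups. Of 10 ligands, partners and kin of the receptors, 7 were measured, 5 higher and 2 lower (median 0.12; without Msi2 KO 3 4 higher and 3 lower, median 0.24), with the CD27 adaptors Traf5 at -0.35 (-0.75 to 0.05) and Traf2 at 0.29 (-0.05 to 0.62). Cd70, the ligand of CD27, was at 0.

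**Figure D5:**
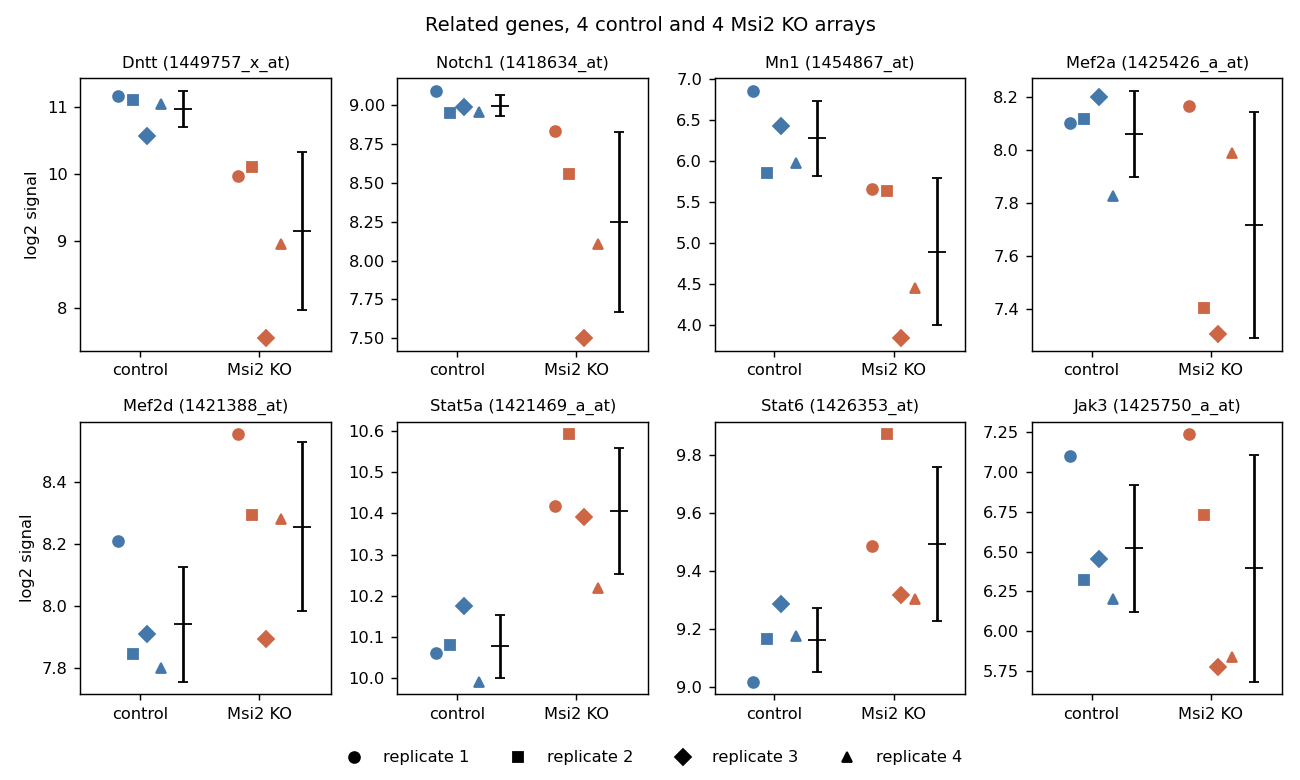
Log2 signal (y axis, a separate range for each panel) of 8 related genes on 4 control (blue) and 4 Msi2 KO (orange) arrays; the marker shape gives the replicate number and the black bar the mean ± SD of 4 arrays. Dntt, Notch1 and Mn1 lie below the controls on every KO array and lowest on Msi2 KO 3 (7.55, 7.50 and 3.84), and Stat5a and Stat6 lie above them.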

How the data were processed

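LSK cells of 4 control and 4 Msi2 KO samples were measured on 8 arrays. The authors deposited 1 log2 signal for each probe set and array, made with RMA, per the submitters' processing notes, with its version not given in the sources used here. RMA shares one distribution among arrays, so a shift common to most probe sets would not be seen. Of 45101 probe sets, 20664 were at 0 on all arrays, set by an unstated step, and were left out, as were the 33 AFFX control probe sets not at 0. This left 24404. Names came from the platform annotation, updated by gene ID through a RefSeq table. A gene was represented by its brightest probe set (10720 genes). Both levels were fitted with limma 3.58.1 in R 4.3.3 (lmFit, eBayes, two-sided, Benjamini-Hochberg over all features, threshold 0.05, 95% intervals). Levels are not compared between probe sets. The number of arrays limits the precision.

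The members and lists were chosen with earlier results of these data known. Named were all member probe sets, and of each list the 2 genes of smallest p besides a fixed set (Il7r, Dntt, Notch1, Ikzf3, Ikzf5, Mef2a, Mef2d, Jak1, Jak3). Cd48, Bcl11b, the genes at 0 or without a name and the genes of markers were named beyond that rule. In simulated data of 24404 probe sets for Msi2 KO against control, 76 of 200 changed by 1 (log2) were recovered and 177 of 200 changed by 2, with 2 and 15 false calls. These counts hold for the simulated data only. On the real arrays the remaining Msi2 was uneven over the KO group, and the sexes were divided unequally between the groups. Differences such as that of Flt3 lay mainly on 1 array. Whether the same shares would be recovered under those conditions was not tested. Alternatives were another normalization, dim probe sets left out, an intensity trend, array weights, the replicate block, Xist as a covariate, each array left out, other probe set rules for genes, and probe sets at 0 kept.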

Additional observations from a re-analysis of the deposited data

Results flagged for a closer look

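Of 84 groups of 4 arrays examined, 2 held an array whose gap to its nearest neighbour exceeded Dixon's 95% critical value, while chance gives about 1 in 20. Satb1 1416008_at on control 2 read 8.90, with the next control at 9.11. Ccr9 1421920_a_at on Msi2 KO 2 read 4.76, with the next KO array at 3.92, within the range of background readings. By the same ratio, the low values of Flt3, Cd27 and Satb1 on Msi2 KO 3 did not exceed that critical value.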

How the results depend on the processing

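No member passed the threshold under any alternative (smallest adjusted p 0.378), and 12 of 26 member probe sets kept their direction throughout, among them those of Flt3 (-0.90 to -0.12), Satb1 1416008_at and 1436182_at and Mef2c 1451506_at and 1451507_at. Same-numbered arrays had r of deviations of -0.12 to 0.13. Controls 1 and 3 had their highest r with the KO array of the same number, and controls 2 and 4 did not. So few values can neither show nor exclude a pairing. With the replicate block 0 genes passed and no call changed. Both groups hold the same replicate numbers, so the block leaves every difference as it was and could move only the p-values. An intensity trend, dim probe sets left out and probe sets at 0 kept also leave the members' differences unchanged. A direction could therefore change only under the other alternatives. Members lower numbered 14 to 21 when 1 array was left out, lowest without Msi2 KO 3. Among all features, probe set 1432344_a_at of Aplp2 passed with repeated quantile normalization (1 probe set) and with array weights (1), 1455994_x_at of Elovl1 with dim probe sets left out (1), and both with an intensity trend (2). With Xist level in the model 4 genes did so (Nhsl1, Mt1, Fscn1 and Fcer1a), and without 1 array 0 to 1 probe sets and 0 to 1 genes (Zg16 without Msi2 KO 1). These genes were named after their values were seen. Members without overlap numbered 0 after repeated quantile normalization and 1 to 2 without 1 array (2 without control 2 or Msi2 KO 2). Chosen after the data were seen, the count of members lowest on Msi2 KO 3 was 13 of 26 after repeated quantile normalization, 15 after median centring and 12 of 18 with dim probe sets left out, against 17.8%, 19.8% and 17.0% of all.

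Some differences changed sign. With median centring Bcl11a 1457072_at was -0.010. With array weights Satb1 1416007_at was 0.050 and Bcl11a 1426552_a_at 0.053. With the Xist covariate Ikzf1 1436312_at was 0.011, Ikzf1 1421303_at -0.018 and Jak1 -0.042. With a gene's probe sets averaged Mef2a was 0.036, Gatad2b 0.050, Jak1 -0.091, Ccr9 -0.024 and Bcl11a 0.17. Leaving out 1 array moved Satb1 1416007_at from -0.30 to 0.18, 1439449_at from -0.16 to 0.0035 and 1439315_at from -0.39 to 0.24, Ccr9 1421920_a_at from -0.070 to 0.32, Cd27 from -0.46 to 0.0069, Ikzf1 1436312_at from -0.15 to 0.067 and 1421303_at from -0.066 to 0.16, Ikzf2 1456956_at from -0.40 to 0.12, Bcl11a 1426552_a_at from -0.070 to 0.032, 1457072_at from -0.091 to 0.090 and 1453814_at from -0.22 to 0.20, Mef2c 1421027_a_at from -0.27 to 0.14, 1424852_at from -0.27 to 0.024 and 1421028_a_at from -0.30 to 0.048, Ikzf5 from -0.026 to 0.22, Jak1 from -0.030 to 0.17 and Jak3 from -0.41 to 0.083. For Cd27, Satb1 1416007_at, these Mef2c probe sets, Jak1 and Jak3 the highest value came without Msi2 KO 3. The cause of the other reversals was not tested. The count without overlap was not recomputed where only the model changed.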
